A study of Mus musculus with 64 samples.

Results

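SOX2 sites found only in SOX2-ON were genomic intervals at which SOX2 was detected by ChIP-seq in all 3 libraries of cells held at high SOX2 during differentiation and in none of the 9 SOX2 libraries of the other conditions. The members were selected on the measured peaks themselves. In each of the 12 SOX2 peak lists the 20000 peaks with the highest deposited fold (signal over local background) were kept. Kept peaks overlapping by 1 bp or more formed a site, and a site had to carry a kept peak in 3 of 3 SOX2-ON lists and 0 of 9 others. This rule took 1706 of 125248 sites (1.36%), or 23.5% of the 7252 sites with a peak in all 3 SOX2-ON lists. The SOX2 peaks at these sites are therefore described below without a test.

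ChIP-seq measures where a protein sits on DNA by sequencing the fragments an antibody pulls down, and here it covered SOX2 and 4 proteins of WNT signalling, namely LEF1, β-catenin, TCF7L2, which the labels call TCF4, and TCF7L1, which they call TCF3, each with 3 biological replicates in 4 conditions. All cells, wild-type ones included, derived from the embryonic stem cell line HM1 TetON (strain 129), which expresses the doxycycline-dependent activator rtTA from Rosa26, and carried the label 72 h. Naive ESC were wild-type cells returned to naive pluripotency in 2i medium, which contains CHIR99021 and the MEK inhibitor PD0325901. Caudal epiblast-like cells (CEpiLC) were wild-type cells grown in FGF and LGK974, a blocker of WNT secretion, with CHIR99021, which activates WNT signalling, added for the last step. SOX2-ON and SOX2-OFF cells went through the same differentiation, but they were Sox2-/- and carried a doxycycline-driven Sox2 cDNA at Hprt. Doxycycline stayed in the medium at 1 µg/ml for SOX2-ON and was withdrawn for SOX2-OFF. The Sox2-/- line had been picked as clones after gene editing, and how many clones entered the libraries is not given in the sources used here. SOX2-ON thus differed from CEpiLC in both cell line and SOX2 level, and only SOX2-OFF shared its genotype.

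SOX2 is a high-mobility-group transcription factor that binds a short AT-rich sequence in the minor groove and bends DNA, in pluripotent cells often beside OCT4 and in neural progenitors beside other partners. It can bind nucleosomal DNA. TCF and LEF proteins also belong to the high-mobility-group family and recognise a related sequence, and β-catenin reaches DNA through them when WNT signalling is active.

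The strongest sites show what lay under these peaks. Windows reaching 50 bp either side of the strongest summit are printed for 6 of the 8 members with the highest median deposited fold over the 3 SOX2-ON libraries. Capitals mark matches on either strand to the SOX letters (CATTGT or CTTTGT) or the TCF letters (CTTTGAA or CTTTGAT), and each window is written on the plus strand of GRCm38 and named for its nearest protein-coding start.
Fhit: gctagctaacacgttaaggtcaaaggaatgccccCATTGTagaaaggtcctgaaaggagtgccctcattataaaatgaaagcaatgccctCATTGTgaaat
Smim15: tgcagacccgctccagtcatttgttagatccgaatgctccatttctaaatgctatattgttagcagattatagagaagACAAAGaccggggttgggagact
Fezf2: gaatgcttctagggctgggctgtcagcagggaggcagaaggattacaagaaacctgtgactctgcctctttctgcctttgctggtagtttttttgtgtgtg
Cntln: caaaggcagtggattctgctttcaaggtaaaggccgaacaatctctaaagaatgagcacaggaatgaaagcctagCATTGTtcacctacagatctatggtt
Rpp14: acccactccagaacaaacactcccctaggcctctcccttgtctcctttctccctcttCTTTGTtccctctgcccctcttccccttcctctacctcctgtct
Nrxn3: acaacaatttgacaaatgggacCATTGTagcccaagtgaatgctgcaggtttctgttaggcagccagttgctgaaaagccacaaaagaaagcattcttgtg
The windows were chr14:9885625-9885725, chr13:107909542-107909642, chr14:12389197-12389297, chr4:85045966-85046066, chr14:8062734-8062834 and chr12:90132704-90132804 in the same order. SOX letters stood in 5 of these 6 windows, with 2 copies at Fhit and 1 copy at each of Smim15, Cntln, Rpp14 and Nrxn3. The Fezf2 window had none, and none of the 6 printed windows held TCF letters. Within the wider 100 bp either side of the summit that is used below, TCF letters were present at Cntln and at the other 2 of the 8 strongest members, Pik3c3 and Sema6a.

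Of the genes in the lists compiled for this study's biology, 2 were the nearest start of 2 members within 100000 bp. They were Ptprz1, a receptor phosphatase of neural progenitors, and Nkd1, a feedback inhibitor of WNT signalling that binds Dishevelled. The stronger member of each is shown because these are the listed genes that met the naming rule.
Ptprz1: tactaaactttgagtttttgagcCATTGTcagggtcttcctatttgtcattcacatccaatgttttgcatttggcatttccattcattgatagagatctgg
Nkd1: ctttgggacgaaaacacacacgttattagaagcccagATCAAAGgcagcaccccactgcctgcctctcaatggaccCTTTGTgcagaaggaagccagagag
These windows were chr6:22788301-22788401 and chr8:88512410-88512510. The Ptprz1 window held 1 SOX match, and the Nkd1 window held 1 SOX and 1 TCF match.

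Some libraries stood apart. Naive ESC replicate 1 had by far the longest SOX2 list, with 907862 peaks, and without it the rule took 1832 sites. Over exons of Tfap2a, Tfap2c and Tcf7l1 the 20 replicate 1 lists of all 5 proteins held peaks with a median fold of 81.3, 47.1 and 49.6, against 8.69, 4.23 and 5.36 in the other 40. No member lay over Tfap2a or Tfap2c, and the 1 member over Tcf7l1 (chr6:72730082-72730897) was intronic, with SOX2-ON folds of 13.6, 10.1 and 9.80.

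In the SOX2-ON libraries the median fold at the members was 10.2, 10.1 and 11.4 for replicates 1 to 3, against 7.80, 7.58 and 9.31 over all kept peaks of the same lists. The median fold of a member over the 3 libraries ran from 6.23 to 42.9 with a middle value of 10.5, and it reached 15 at 297 members and 20 at 99. The highest fold at a member was 45.0, 42.9 and 56.5 in the 3 lists, whose strongest peaks reached 90.8, 90.1 and 103, and the median rank of the members was 5253, 5289 and 6070 of 20000. Members thus lay mostly in the upper part of the kept peaks without reaching their top, but the rule required a kept peak in all 3 lists. The highest fold of a site in any of the 12 kept lists had a median of 13.4 at members. It was 15.8 at sites found only in naive ESC, 19.9 at sites in all 3 SOX2-ON lists and at least 1 other, and 34.6 at sites in all 12. The first of these classes, like the members, had kept peaks in 3 lists. The other classes had them in more lists, and a maximum over more lists tends to be higher. The highest SOX2-ON fold at a member exceeded the lowest by a median of 1.49-fold. Summits of the 3 libraries lay within 100 bp of each other at 1075 members (63.0%), with a median spread of 80 bp. The members had a median width of 622 bp (233 to 2159) and covered 1.13 Mb.

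Absence from the other conditions depended on how deep their lists were read. The complete lists held from 29298 to 907862 SOX2 peaks, and only the kept peaks decided membership. In the complete lists of naive ESC, 994, 445 and 298 members carried a peak in replicates 1 to 3, which is 58.3%, 26.1% and 17.5%. Intervals of the same widths 5000 bp away that touched no SOX2 site carried one in 27.5%, 3.29% and 2.13% of cases. For SOX2-OFF the shares were 1.99%, 19.9% and 13.7% at the members and 1.38%, 10.7% and 6.95% beside them. CEpiLC had 2.75%, 9.85% and 1.52% at the members and 0.0627%, 2.54% and 0.251% beside them. In each of the 9 libraries peaks were thus more frequent at the members than beside them, so this was not particular to naive ESC. Fold at these weaker peaks, which the rule held below the kept ones, had medians of 3.90 to 4.88 over the 9 libraries.

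Of the 1706 members, 449 carried a peak in at least 2 of the 3 complete naive ESC lists, 64 in at least 2 of 3 for SOX2-OFF and 25 in at least 2 of 3 for CEpiLC. Of those 449, 357 had no peak in any complete CEpiLC list. The reverse, at least 2 of 3 in CEpiLC and none in naive ESC, held for 2 members. In all, 360 members (21.1%) lacked a peak in every complete list of the 9 others. Weaker naive ESC peaks were thus present at many members. The complete lists differed in length, with 907862, 136687 and 107016 peaks in naive ESC and 29298, 104085 and 39683 in CEpiLC. SOX2-OFF had 56263, 375980 and 224107. The part of list length in these counts was not tested, and the same counts over all SOX2 sites were not made.

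**Figure D1:**
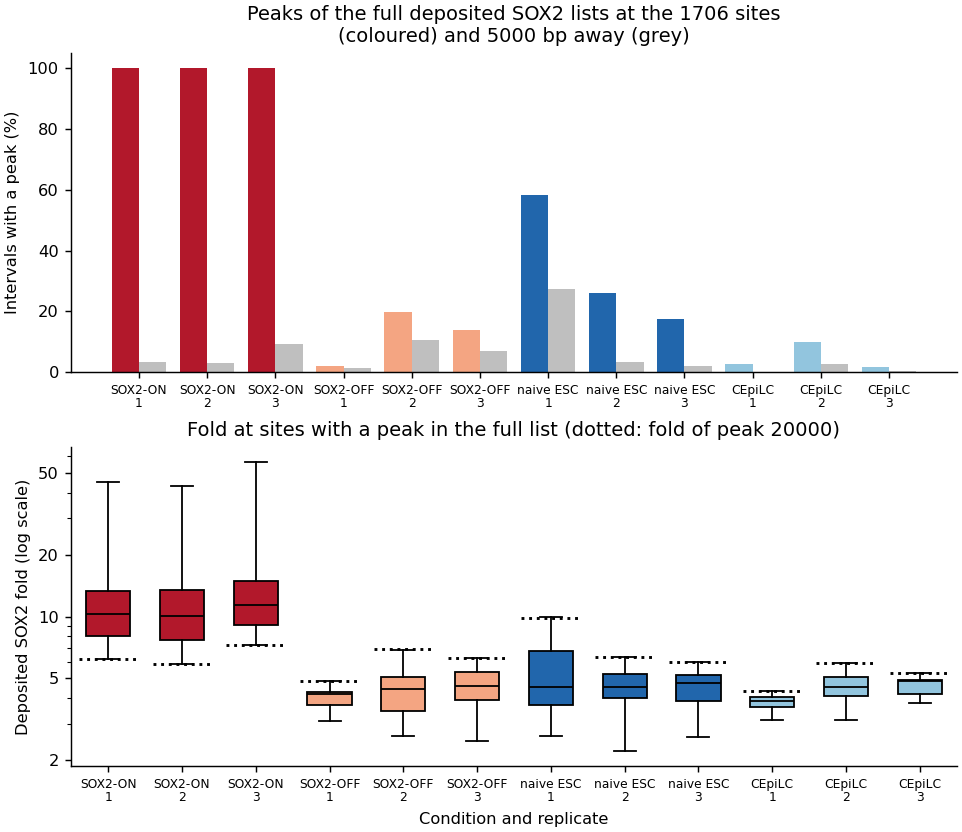
Top, percent of the 1706 sites (coloured) and of same-width intervals 5000 bp away (grey) with a peak in the full deposited SOX2 list of each library; bottom, deposited fold at sites with such a peak, as boxes from the lower to the upper quartile with the median and whiskers to the extremes, on a log axis. The 3 SOX2-ON libraries stand at 100% because the rule requires it, naive ESC replicate 1 reaches 58.3%, and the dotted line is the fold of the last kept peak, which bounds each box from below in SOX2-ON and from above elsewhere.

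The edges of the rule were gradual. The members with the lowest fold in any SOX2-ON library lay in introns of Nrap, Spen and Igf1r, with lowest folds of 5.90, 5.95 and 5.95. The Spen member (chr4:141535070-141535601) carried folds of 8.78, 5.95 and 12.4 in SOX2-ON and 8.45 in naive ESC replicate 1, where that fold was below the 9.89 of the last kept peak. Just outside the rule stood 704 sites with a peak in 3 of 3 SOX2-ON lists and 1 of the 9 others. The strongest of these was nearest to Cd180 (chr13:102599845-102600625), with folds of 28.3, 46.7 and 51.6 in SOX2-ON and 6.45 in naive ESC replicate 3, just over that list's limit of 6.02. A site in an intron of Camk1d (chr2:5483876-5485355) had 39.2, 17.7 and 48.6, and one nearest to Rsl24d1 (chr9:73360273-73361787) had 35.6, 29.0 and 38.5. Both were kept out by 1 naive ESC peak, of 6.95 and 13.6. Sites in all 3 SOX2-ON lists and at least 1 other list numbered 5546 and serve below as the shared sites.

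Choosing the sites with 1 replicate number set aside allowed a look at libraries that had no part in the choice. With 2 of 2 SOX2-ON lists and 0 of 6 others required, the held-out SOX2-ON library carried a kept peak at 72.0% of 2799 sites for replicate 1, at 70.2% of 2861 for replicate 2 and at 62.6% of 3075 for replicate 3. It carried one at 14.0% to 14.7% of all sites built without it. The 9 held-out libraries of other conditions carried one at between 1.82% (SOX2-OFF replicate 1) and 9.02% (naive ESC replicate 2) of the chosen sites. Of all sites they carried one at 6.37% (SOX2-OFF replicate 1) to 16.9% (CEpiLC replicate 1), in each library more than of the chosen sites. The choice had required absence from the other lists of the same conditions. The SOX2-ON shares lay far above all 9, and the chosen sites without a kept peak in the held-out SOX2-ON library were the smaller part each time.

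The sites lay far from promoters. Only 31 summits (1.82%) were within 1000 bp of a protein-coding start, compared with 10.5% of all SOX2 sites, 2.99% of sites found only in naive ESC, 31.0% of those found only in CEpiLC and 15.5% of those in all 12 libraries. Sites chosen without replicate 1, 2 or 3 had 3.75%, 2.90% and 2.37%. Naive-only sites were not chosen again without these libraries, so whether the order against them holds was not tested. Beyond promoters, 840 summits (49.2%) were intronic, 790 (46.3%) intergenic and 45 (2.64%) exonic in the GENCODE models. The median distance to the nearest protein-coding start was 68217 bp, against 29907 bp for all sites, 31691 bp for shared sites and 23041 bp for naive-only sites. More than 100 kb separated 698 members (40.9%) from any protein-coding start, against 25.5% of all sites.

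Intronic members sat in long genes. For the 727 within introns of protein-coding genes the host gene had a median length of 224 kb, against 132 kb for all SOX2 sites and 87.8 kb for naive-only sites. A host over 500 kb held 171 of them (23.5%), against 14.9% of all intronic sites. The 10 kb around the summit had a median GC content of 41.3%, against 43.7% for all sites, and 33.9% of the windows within 100 bp of the summit had no CpG, against 20.5%. These shares describe sites, which are not replicates.

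**Figure D2:**
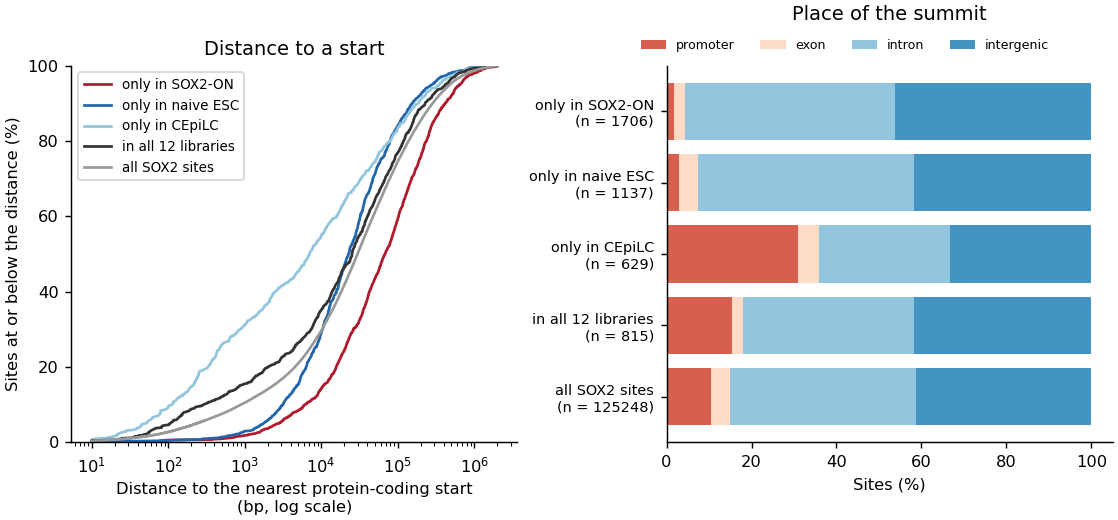
Left, cumulative percent of sites by distance from the strongest summit to the nearest protein-coding start (bp, log axis) for 5 classes of SOX2 site; right, percent of each class with the summit at a promoter (within 1000 bp of a start), in an exon, in an intron or between genes. The sites found only in SOX2-ON form the curve farthest to the right, with a median of 68217 bp, and have a promoter share of 1.82%, which is 3.75% for sites chosen without replicate 1.

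No gene attracted a large number of members. The 1706 sites were nearest to 1354 genes, of which 23 were nearest to at least 4. Zfp608, a zinc-finger gene on chromosome 18, led with 7 members among the 121 SOX2 sites nearest to it, 4 intronic and 3 intergenic. Unc5d (ENSMUSG00000063626.6, chromosome 8), a netrin receptor of axon guidance, had 6. Next, with 5 each, came Tenm3, a teneurin, Sorcs1, a sorting receptor, Sema6a, a semaphorin, Adgrl2, a latrophilin, Efna5, an ephrin ligand, Nrxn3, a neurexin of the presynaptic membrane, and Cdh8, a neuronal cadherin. Among the genes with 4 each, Abcc4, a transporter gene, was named because its members had the highest median fold.

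The strongest sites near these genes were similar between the SOX2-ON libraries at some and uneven at others. At Unc5d the strongest member (chr8:29997138-29997630) lay 777680 bp upstream with folds of 23.6, 27.8 and 23.3. At Tenm3 (chr8:49441067-49441989) the folds were 21.0, 28.8 and 19.5. At Cdh8 (chr8:98572705-98573817) they were 24.6, 24.9 and 33.6. Uneven ones were Adgrl2 (chr3:149242358-149242708) with 17.1, 7.29 and 27.7, Abcc4 (chr14:118510294-118511775) with 28.0, 24.4 and 9.85, and Zfp608 with 18.3, 13.0 and 30.5. At such distances the nearest start only names the place.

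Along the genome, 293 members (17.2%) had another member within 50 kb, and the median distance to the nearest one was 362 kb. Of groups of at least 4 members with gaps of at most 50 kb there were 2. One spanned 113 kb between Lyplal1 and Tgfb2, the gene of a TGF-β ligand (chr1:186321372-186434413), with median folds of 10.3 to 17.1. The other spanned 110 kb upstream of Sema6a on chromosome 18, with 10.7 to 33.7.

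The 8 strongest members had median folds from 32.8 to 42.9. The first was intergenic on chromosome 18, 1802055 bp from Pik3c3, a class III phosphoinositide kinase gene, with folds of 45.0, 42.9 and 36.8 in SOX2-ON and of 4.33, 3.87 and 5.92 in the complete lists of naive ESC replicates 1 and 3 and CEpiLC replicate 2. The second lay within Fhit (chr14:9885397-9886043), a tumour-suppressor gene of a common fragile site, over an exon of a pseudogene, with 43.6, 30.3 and 42.3 and no peak in any of the other 9 complete lists. Both were high in all 3 libraries, and the rule allowed no kept peak elsewhere.

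An intergenic site 134854 bp upstream of Smim15 (chr13:107909087-107909910) had 19.0, 39.6 and 35.6. The site nearest to Fezf2 (chr14:12388603-12389611), which encodes a forebrain transcription factor, lay in an intron of Cadps with 38.4, 28.4 and 35.5. At the intronic Nrxn3 site (chr12:90132084-90133098) the values were 42.3, 27.1 and 32.8, with 8.04 and 5.12 in naive ESC replicates 1 and 2. Sema6a, Cntln (chr4:85045674-85046414) and Rpp14 (chr14:8062287-8063604) made up the 8, with median folds of 33.7, 33.2 and 33.0. Within these 8, SOX2-ON folds were never below 19.0 and folds elsewhere never above 9.41. The choice by SOX2-ON fold and the rule against kept peaks elsewhere set this gap in advance.

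Genes of the 8 lists had few members. Within 100000 bp the lists together took 31 of 1706. Neural genes had 15 members (0.879%, against 0.798% of all SOX2 sites and 3.18% of CEpiLC-only sites), at 14 genes. Among them were Dcx, a microtubule protein of migrating neurons, with a promoter member on chromosome X (chrX:143932642-143933250) of folds 16.5, 11.6 and 16.7, and Zeb2, an epithelial-to-mesenchymal and neural factor, with an intronic one of 15.6, 18.1 and 16.1. Pax6, a regulator of neural progenitors, had a member 51808 bp downstream of its start with 14.7, 17.1 and 12.4. These shares were near the background, so the neural list was not particular to the members.

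Naive pluripotency genes had a single member, near Mycn (0.0586%, against 0.408% of all sites and 1.32% of naive-only sites). Primed epiblast genes had 3, at Dnmt3a, Otx2 and Sall2 (0.176%, against 0.202%). Caudal epiblast and primitive streak genes had 3, at Fgf8, Sp8 and Wnt5a (0.176%, against 0.307%). The Wnt5a site (chr14:28512774-28513504), 1602 bp downstream of a start of this WNT ligand and one of the signals of the caudal embryo, was the strongest of these, with a median fold of 20.7 and a highest of 22.3. WNT feedback genes had 3 (0.176%, against 0.331%), 2 at Nkd1 and 1 in an intron of Tcf7l1. FGF pathway genes had 3 (0.176%, against 0.176%), at Dusp6, Etv1 and Spry2, and extra-embryonic lineage genes had 3 (0.176%, against 0.161%), at Col4a2, Elf5 and Gata6. Neural crest genes had 0, against 0.174% of all sites. With 0 to 3 members a list, no difference from the background can be read.

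SOX letters stood at most members and at their summits. CATTGT or CTTTGT occurred within 100 bp of the strongest summit at 1290 members (75.6%). The share was 41.5% for all SOX2 sites, 70.0% for shared sites, 64.9% for sites in all 12 libraries, 56.6% for naive-only sites, 45.3% for CEpiLC-only sites, and 29.9% for windows 5000 bp from the members. At the summits of the single SOX2-ON libraries it was 76.1% ± 1.4 (SD, n = 3). CTTTGT was present at 55.7% and CATTGT at 41.6%, against 18.9% and 13.3% in the windows 5000 bp away. The printed Fhit, Cntln and Nrxn3 windows carry CATTGT and the Rpp14 window CTTTGT, while the Smim15 window carries the latter on the minus strand.

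Members also held more copies. The mean was 1.38 per window, against 1.13 at shared sites, 0.908 at sites in all 12 libraries, 0.559 at all sites and 0.354 in windows 5000 bp away. At least 3 copies stood in 15.5% of member windows and in 2.36% of all site windows. The copies peaked at the summit, where a bin of 20 bp held up to 0.190 per member, against 0.0362 in the windows 5000 bp away, and the 1290 members with a copy had the nearest one at a median of 24.5 bp from the summit. Neighbouring copies were a median of 40.0 bp apart, 60.8% on the same strand, against 45.0 bp and 59.1% over all sites. By quartile of median fold the share with SOX letters was 69.8%, 71.6%, 78.4% and 82.7% from weakest to strongest.

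**Figure D3:**
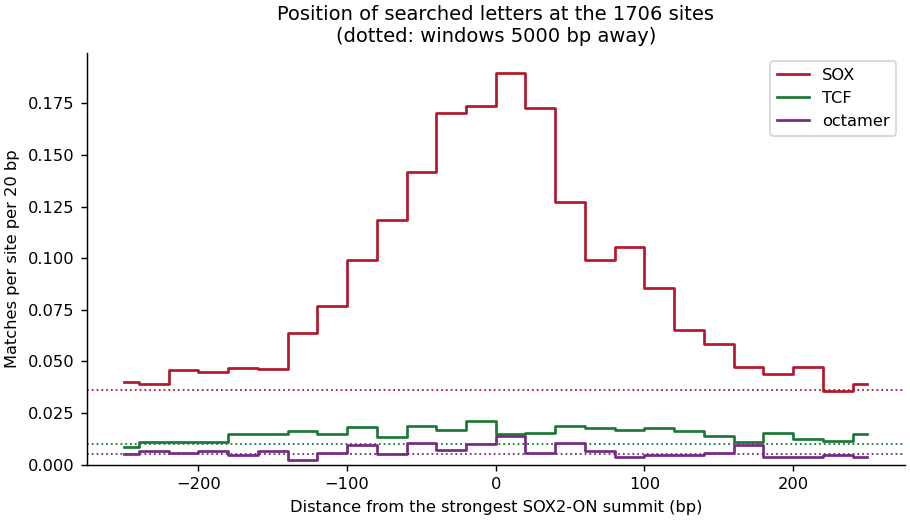
Matches per site per 20 bp to SOX, TCF and octamer letters (vertical axis) by distance from the strongest SOX2-ON summit (bp) at the 1706 sites, with dotted lines for windows 5000 bp away. The SOX line rises to 0.190 at the summit and falls off on both sides toward its background of 0.0362, while the TCF line stays at or below 0.0211.

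OCT4-type letters were less common at members than at shared sites. The octamer ATGCAAA was present at 7.62% of members, against 11.6% of shared sites, 16.3% of sites in all 12 libraries, 6.05% of all sites and 5.26% of windows 5000 bp away. SOX letters followed after 1 base by ATGC, the joint OCT-SOX arrangement, occurred at 14 members (0.821%), against 3.80% of sites in all 12 libraries, 3.32% of shared sites, 0.639% of all SOX2 sites and 0.0608% of windows 5000 bp away. Naive-only sites had the octamer at 7.83% and the joint arrangement at 1.23%. TCF letters were present at 15.2%, against 11.5% of all sites and 17.3% of shared sites. They shared a window with SOX letters at 180 members (10.6%), against 4.98% of all sites. The SOX and TCF letters share their first 5 bases in CTTTG but cannot match at the same place and strand.

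ESRRB and KLF letters were rarer than at naive-only sites, whereas the octamer was about as frequent (7.62% against 7.83%). The ESRRB letters TCAAGGTC, for an orphan nuclear receptor of naive pluripotency, occurred at 4 members (0.234%), against 7.21% of naive-only sites and 1.33% of all sites. KLF letters (GGGTGTG or GGGCGTG) occurred at 2.64%, against 13.0% of naive-only sites, 12.2% of CEpiLC-only sites and 3.74% of windows 5000 bp away. GGTGTG, the T/BRA half-site, which lies inside the first of the KLF words, occurred at 8.97%, against 13.7% of all sites. CDX letters (TTTATGG or TTTATTG) were present at 7.44%, near the 7.01% of all SOX2 sites, the 6.35% of shared sites and the 8.88% of windows 5000 bp away, and CEpiLC-only sites had 14.0%.

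Among the other letters searched, homeobox letters had the lowest share relative to all SOX2 sites. GATA letters (AGATAA) stood at 14.4%, against 10.9% of all sites but 13.4% of the windows 5000 bp away. AP-1 letters (TGACTCA or TGAGTCA) stood at 5.57% against 4.60% of all sites, TEAD letters (GGAATG) at 13.2% against 12.6%, OTX letters (GGATTA) at 8.85% against 7.64%, the E-box CAGCTG at 10.8% against 12.1%, and FOXH1 letters (AATCCACA or AATACACA) at 2.75% against 2.20%. Homeobox letters (TAATTA) stood at 3.63%, below the 5.45% of all sites and the 6.98% of shared sites. All letters were searched on both strands, and a match describes the window only. GC content of the classes differed, with a median of 42.8% in member windows and 46.8% over all sites, and its part in these shares was not tested.

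**Figure D4:**
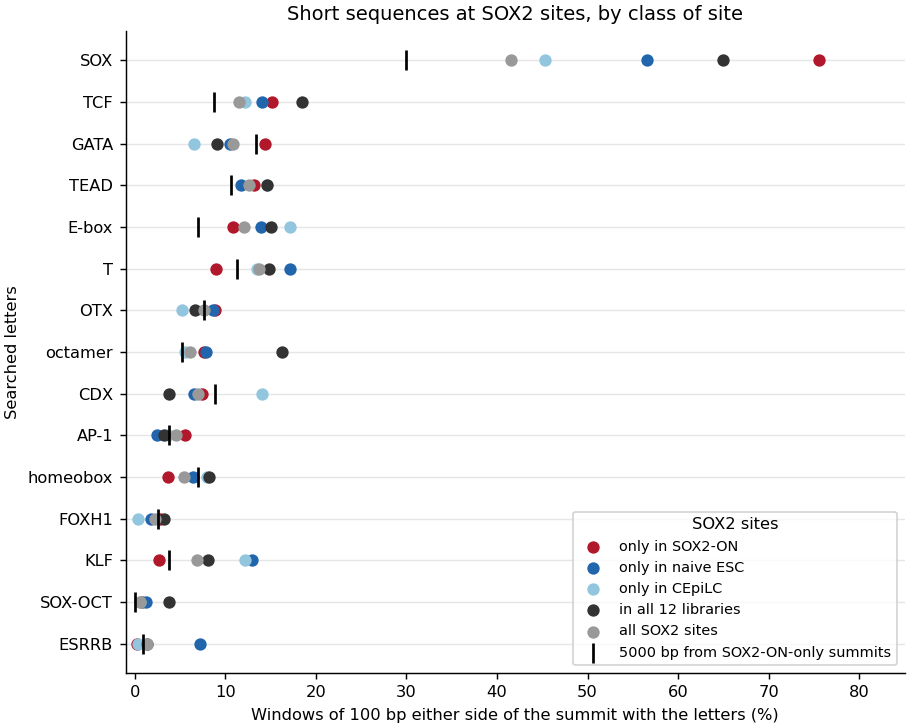
Percent of windows of 100 bp either side of the strongest summit that hold each set of letters (horizontal axis), for 5 classes of SOX2 site (dots) and for windows 5000 bp from the SOX2-ON-only summits (bars). The red dot for SOX letters, 75.6%, stands to the right of every other class, and those for KLF and ESRRB letters, 2.64% and 0.234%, stand far left of the naive-only dots.

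The other proteins had their own libraries, which took no part in the choice of sites. These libraries came from the conditions that the rule contrasted, so the tests below repeat its contrast with other proteins. The 4 conditions had 4 input samples, and whether an input shared between proteins shaped both sets of peaks was not tested. The lists of a protein were shortened by fold to its shortest one, which held 1628 peaks of TCF7L1, 4134 of TCF7L2, 4443 of LEF1 and 3423 of β-catenin, and the percent of members with a kept peak was compared over libraries. β-catenin, the nuclear effector of WNT signalling, had a peak at 14.6%, 12.1% and 9.03% of members in the SOX2-ON libraries. In the SOX2-OFF libraries it had one at 0.117%, 0.352% and 0.117%, in naive ESC at 0.117%, 0.293% and 0.234%, and in CEpiLC at 0 members in each of the 3. The SOX2-ON libraries did not overlap any of the 9 others. The mean was 11.9% ± 2.8 (SD, n = 3) against 0.137% ± 0.13 (SD, n = 9), a difference of 11.8 percentage points.

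LEF1, a TCF-family protein that carries β-catenin to DNA, had a peak at 8.44%, 26.1% and 6.68% of members in SOX2-ON. The 9 other libraries ranged from 0 in CEpiLC replicate 3 to 0.996% in naive ESC replicate 2. Over all SOX2 sites LEF1 was at 0.199%, 2.67% and 0.906% in naive ESC replicates 1 to 3. It was at 0.861% to 1.35% in SOX2-OFF and 2.64% to 2.72% in CEpiLC. The kept LEF1 peaks of naive ESC replicate 1 thus seldom lay at any SOX2 site. At members all 3 SOX2-ON libraries were above all others, but replicate 2 was well above replicates 1 and 3. The means were 13.8% ± 11 (SD, n = 3) and 0.234% ± 0.30 (SD, n = 9), a difference of 13.5 points. With replicate 2 left out and the sites chosen again without it, the difference was 6.06 points.

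TCF7L1, a family member that acts mostly as a repressor in pluripotent cells, had 1.23%, 4.10% and 3.28% in SOX2-ON and at most 0.117% elsewhere. The difference was 2.83 points, from 2.87% ± 1.5 (SD, n = 3) to 0.0391% ± 0.051 (SD, n = 9). TCF7L2, which acts more as an activator, had 1.23%, 2.17% and 1.58% in SOX2-ON and at most 0.469%, in SOX2-OFF replicate 3, elsewhere. The difference was 1.52 points, from 1.66% ± 0.47 (SD, n = 3) to 0.137% ± 0.14 (SD, n = 9). For neither protein did the SOX2-ON libraries overlap the others.

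Two-sided exact permutation tests of 3 against 9 libraries gave p = 0.0045 and adjusted p = 0.0045 over the 4 proteins for each of these differences, which is the smallest p that the 220 assignments allow. The 9 libraries come from 3 conditions and were treated as 1 group. Against each other condition alone all 12 pairwise differences were positive, from 1.39 points for TCF7L2 against SOX2-OFF to 13.7 points for LEF1 against CEpiLC, with exact p = 0.10 and adjusted p = 0.10 each, the smallest that 3 against 3 libraries allow. SOX2-ON minus SOX2-OFF exceeded naive ESC minus CEpiLC by 1.29 points for TCF7L2, 2.79 for TCF7L1, 13.2 for LEF1 and 11.5 for β-catenin. When cell-line labels were permuted within each SOX2 level, exact p was 0.10, 0.080, 0.095 and 0.10 in that order, and adjusted p was 0.10 for all 4. The wild-type difference was 0.0586 to 0.371 points at sites chosen to lack SOX2 peaks in both wild-type conditions, and with 3 of the 4 groups near 0 this test says little about the cell lines.

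**Figure D5:**
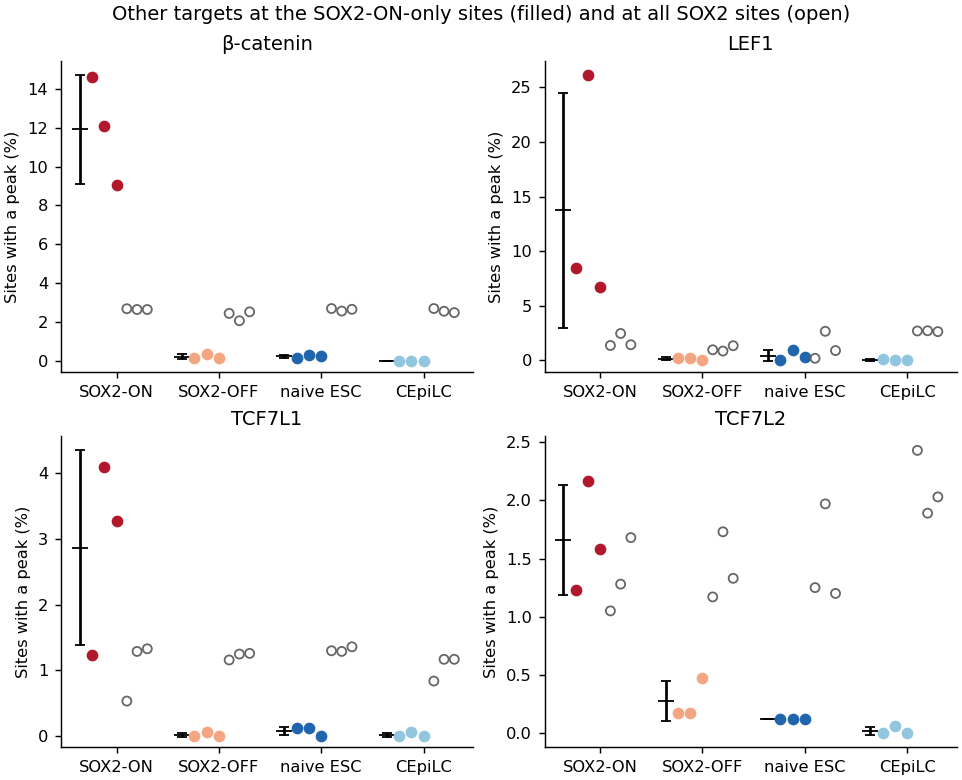
Percent of the 1706 SOX2-ON-only sites (filled points) and of all SOX2 sites (open points) with a peak of each other protein in the shortened list of each library, in 4 conditions with 3 replicates from left to right; black bars give the mean ± SD of the filled points. The filled SOX2-ON points lie above every other filled point in all 4 panels, while for TCF7L2 they lie within the range of the open points.

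How these shares stood against other SOX2 sites differed by protein. Median width was 622 bp at members, 251 bp at all SOX2 sites and 874 bp at shared sites. The part of width in these comparisons was not tested. Over all SOX2 sites the SOX2-ON libraries had a β-catenin peak at 2.67%, 2.63% and 2.63%, a LEF1 peak at 1.37%, 2.47% and 1.44%, and a TCF7L1 peak at 0.534%, 1.29% and 1.33%, each below the same library's share of members. For TCF7L2 the shares of all sites were 1.05%, 1.28% and 1.68%, and those of members were higher in 2 of the 3 libraries only. Shared sites carried the proteins far more often, with β-catenin at 33.7%, 33.8% and 30.7% and LEF1 at 16.3%, 31.8% and 17.2%. In the naive ESC libraries β-catenin was at 2.55% to 2.68% of all sites and at no more than 0.293% of members.

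Peaks that followed the same all-or-none pattern were few. A β-catenin peak in 3 of 3 SOX2-ON and 0 of 9 other lists stood at 66 members (3.87%), against 0.248% of all SOX2 sites and 3.80% of shared sites. For LEF1 it was 28 members (1.64%), against 0.0846% of all and 1.23% of shared sites, and for TCF7L1 7 members (0.410%), against 0.0511% and 0.956%. TCF7L2 had 0 such members, against 0.00878% of all sites. The β-catenin share of members and of shared sites was nearly equal, so this pattern was not particular to the members. Any SOX2-ON library had β-catenin at 366 members (21.5%) and LEF1 at 530 (31.1%), and any of the 9 others at 15 and 33. The same counts over all SOX2 sites were not made, so these do not set the members apart.

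Summits of β-catenin and LEF1 lay close to those of SOX2. The median distance between the β-catenin and strongest SOX2 summit was 42, 40 and 45 bp in the 3 SOX2-ON libraries, and for LEF1 it was 51, 41 and 52 bp. TCF7L1 summits were at 70, 30 and 33 bp and TCF7L2 summits at 76, 43 and 51 bp, with 21 members each in replicate 1. β-catenin in at least 2 of 3 SOX2-ON lists stood at 173 members (10.1%), against 32.0% of shared sites. LEF1 did so at 144 members, with 77 in common, or 44.5% of the first and 53.5% of the second. Members with β-catenin had a higher SOX2 fold, a median of 14.2 against 10.1 at the 1340 without it in any SOX2-ON list. From the weakest to the strongest quartile of SOX2 fold, β-catenin in at least 2 lists went from 3.75% through 5.16% and 9.86% to 21.8%, and LEF1 from 2.11% to 22.0%.

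TCF letters were more frequent at members with β-catenin, and SOX letters were not. TCF letters stood at 40.5% of the 173 members with β-catenin and at 11.3% of the 1340 without. SOX letters stood at 75.1% and 75.8%, and octamers at 8.67% and 7.46%. Shared sites showed the like with TCF letters at 33.6% of 1776 sites with β-catenin and 8.34% of those without. The printed Nkd1 site (chr8:88512206-88512817), with both SOX and TCF letters 8894 bp upstream of the start, had SOX2 folds of 11.5, 7.25 and 18.7 and kept peaks of β-catenin in 3, LEF1 in 3 and TCF7L1 in 2 SOX2-ON libraries. Its second member, downstream of the gene, had 6.22, 7.09 and 7.69 and none of the 4 proteins. The printed Ptprz1 site (chr6:22788042-22788696), with SOX letters alone, had 18.3, 9.32 and 18.3, with β-catenin in 3 lists and LEF1 in 2.

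All 4 other proteins, each in at least 2 of 3 SOX2-ON lists, met at 4 members, named here after their values were seen. They lay in introns of Atp8b4 (chr2:126384967-126385912), a phospholipid-flippase gene, and Cdh11 (chr8:102706793-102708321), a mesenchymal cadherin, and between genes nearest to Gm28363 (chr1:117350073-117350858) and Cep170 (chr1:176538000-176538800). SOX2 folds at Atp8b4 were 20.6, 19.9 and 34.7, and at Cdh11 10.4, 10.9 and 8.45. SOX letters were present at 3 of the 4 and TCF letters only at Cdh11. At 1465 members none of the 4 proteins reached 2 of 3 SOX2-ON lists, a count not made over all SOX2 sites.

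Complete lists of the other proteins gave larger shares in all conditions. β-catenin was then at 76.3%, 46.8% and 69.3% of members in SOX2-ON, at 17.7%, 16.4% and 10.6% in naive ESC, at 18.6%, 0.352% and 4.16% in SOX2-OFF and at 1.11% or less in CEpiLC. Over all SOX2 sites the complete lists gave 9.80% to 25.6% in SOX2-ON and 20.4%, 17.7% and 16.7% in naive ESC, so the naive ESC share of members was below that of all sites in each library. TCF7L1 was at 6.10%, 50.1% and 82.8% in SOX2-ON and at 40.8%, 8.26% and 24.9% in naive ESC, so these groups overlapped. The difference from the 9 others was 14.5 points for TCF7L2, 34.1 for TCF7L1, 50.6 for LEF1 and 56.4 for β-catenin. By the exact permutation test over all 12 libraries, adjusted p was 0.055, 0.048, 0.0091 and 0.0091 in that order, so TCF7L2 no longer passed. List length ranged from 1628 to 991719 over these libraries, and its part and that of site width in the complete-list shares were not tested.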

How the data were processed

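ChIP-seq peak lists of 60 immunoprecipitated libraries were used, and 4 input samples were not analysed here. Per the study's methods, the authors aligned single-end reads to mm10 with BWA in the nf-core pipeline and called narrow peaks per library with MACS (MACS2 in the submitters' processing notes) at q below 0.05. The deposited fold of a peak is the ratio of signal to local background at its summit, and the deposited −log10 p-value and q-value refer to the same position. Which input served which library is not given in the sources used here. Read depth is unknown, since the lists hold no counts, so no counting interval could be given. Labels call the replicates biological, and p-values measure the spread between these libraries only.

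The members and gene lists were chosen with earlier results of these data known. Genes named in the text were listed genes nearest to at least 2 members within 100000 bp, the 8 strongest members, the 10 genes nearest to most members (at least 4, ties by median fold), and sites at the edge of the rule; others are named where a count is small. Peaks were merged, ranked and intersected in Python 3.11.15 with numpy 2.4.6 and pandas 2.3.3. Gene models were GENCODE basic vM21 and sequence was GRCm38 from RefSeq, and 0 peaks ran past a chromosome end. An exon here is an exon of any annotated gene. The procedure was tested on simulated lists.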

Additional observations from a re-analysis of the deposited data

How the results depend on the processing

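The number of sites moved most with the rule. It was 746 with lists of 5000 peaks and 360 with absence judged in all deposited peaks, against 1706. Leaving out libraries gave 1734 to 3075, where 2799 to 3075 came without 1 replicate number and 2768 without SOX2-ON replicate 3. Ranking by p-value gave 1753 sites, with 1541 of the 1706 among them, lists of 10000 gave 1201 with 879, and all deposited peaks gave 1739, which met only 356 of the 1706. Of 52 alternative values of the 3 against 9 tests, 51 kept direction and side of 0.05. With all deposited peaks TCF7L2 was 14.5 points and no longer passed. Members from lists of 10000 gave differences of 18.9 (β-catenin), 19.6 (LEF1), 5.85 (TCF7L1) and 2.97 (TCF7L2) points. Leaving out a replicate number gave 8.84 to 9.87, 6.06 to 12.9, 1.93 to 3.45 and 1.20 to 1.68 points. The sites were chosen again without that number, so these values cover more sites than the 1706. For the difference between cell lines, subtracting the share of all SOX2 sites gave 3.22 points for TCF7L1 with exact permutation adjusted p = 0.040, while the other 27 of 28 alternative values did not pass. The sites were chosen to lack kept SOX2 peaks in both wild-type conditions, so this value too says little about the cell lines.

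With the replicate number as a block, the 3 against 9 differences stayed 11.8, 13.5, 2.83 and 1.52 points with exact permutation p = 0.016 each. The block changed no call. For the SOX2 libraries the correlation of same-numbered deviations from the group means was -0.00786 to 0.0228 over 18 pairs, 0 of them over 0.1. By this measure the numbers gave no sign of pairing, but it cannot exclude effects at a few places. The strong exon peaks of replicate 1 and the 8 of 12 libraries that correlated best with their own number are a hint of something shared. The SOX share of 75.6% was 56.4% within 50 bp and 90.2% within 250 bp, and the TCF share of 15.2% was 8.09% and 31.2%. A promoter of 5000 bp took 8.44% of members. Of the sites chosen without replicate 1, 3.75% were at promoters of 1000 bp, against 1.82% of members. Read depth, which is unknown, limits every statement of absence.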

Other observations

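The sites were unevenly spread over chromosomes. Chromosome 6 held 169 members (9.91%), against 7.77% of sites in SOX2-ON and at least 1 of the 9 other lists, 6.28% of all SOX2 sites, 5.10% of naive-only sites and 3.82% of CEpiLC-only sites. Its share of the kept peaks was 7.29% to 7.49% in SOX2-ON, 6.24% to 6.84% in SOX2-OFF, 5.62% to 5.83% in naive ESC and 5.27% to 5.61% in CEpiLC. Chromosome X held 59 members (3.46%), near the 3.50% of sites shared between SOX2-ON and other conditions and above the 1.97% of all sites, and 2.77% to 3.03% of kept peaks in SOX2-ON against 1.62% to 2.52% in the 9 other libraries. Chromosomes 11 and 9 were low, with 3.28% and 3.11% of members against 5.98% and 5.33% of all sites. These values are given without a test.

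Repeat-masked bases, written in lower case in the reference, made up 18.7% of the windows at the sites, 19.7% at shared sites, 21.8% at all SOX2 sites, 15.7% at CEpiLC-only sites, 28.0% at naive-only sites and 30.2% in windows 5000 bp away. Windows that were mostly masked made up 9.20% at the sites, 11.5% at shared sites, 14.6% at all SOX2 sites, 8.11% at CEpiLC-only sites and 23.0% at naive-only sites.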
